A study of Homo sapiens with 22 samples.

Results

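The regions described here are those at which K562 cells carried a peak of H3K27ac in every library, before PMA and after 6 and 72 h of it. H3K27ac is histone H3 acetylated at lysine 27, written mainly by the acetyltransferases p300 and CBP and found at active promoters and enhancers. The same lysine can instead be methylated by Polycomb repressive complex 2, whose catalytic subunit is EZH2, and histone deacetylases take the acetyl group off. The regions were taken from the authors' H3K27ac region table, on chromosomes 1 to 22 and X, as those that overlapped by at least 1 bp a deposited peak of each of the 6 H3K27ac libraries. This rule was met by 17164 of 94896 regions (18.1%), which are called constant-peak regions. The name refers to the presence of a peak at each time and says nothing of its height.

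K562 is an established human leukemia line with erythroid features, labelled WT here, and PMA is a phorbol ester that drives it toward a megakaryocyte-like state. The groups were cells at 0, 6 and 72 h of 25 nM PMA, with 2 libraries for each antibody and time. The antibodies were against H3K27ac, Jun (which forms AP-1 dimers with Fos proteins), CTCF (a DNA-binding insulator protein) and Rad21 (a subunit of cohesin, the ring complex that holds chromatin loops), and Rad21 was profiled at 0 and 72 h. The submitters studied how loops of chromatin change as the cells differentiate, and the question here is what was shared by the regions that kept a peak throughout. The titles abbreviate the assay as CNR, read here as CUT&RUN, and the labels describe cells fixed in formaldehyde before the assay. All values come from 1 cell line, and nothing in the labels says that the libraries of a group came from separate cultures, so a p-value measures the spread between these libraries, which may be technical.

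Counts summed over regions lay between 12634261 and 27266241 per H3K27ac library, 4766421 and 18883962 for Jun, 2553677 and 6068421 for CTCF, and 4398797 and 7285286 for Rad21. A constant-peak region held a median of 353 to 617 H3K27ac counts per library. At 0 h both H3K27ac libraries had a peak over the starts of the erythroid genes TAL1, KLF1 and EPOR, but neither had one over the listed start of GATA1. Among markers of other lineages, the liver gene ALB had none and the T cell gene CD3D had one, in a constant-peak region.

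The sequences before 5 gene starts that lay in constant-peak regions show what such promoters look like. Each is the 250 bases that precede the start, read 5′ to 3′ on the gene's strand, from RefSeq on GRCh38.p14. They were chosen because results turn on them: EZH2 for the enzymes that act on H3K27, RPL13A for the ribosomal protein genes, TFRC (the transferrin receptor, which takes up iron) for the erythroid genes, MAFF (a small Maf transcription factor) for the genes whose H3K27ac was higher after PMA, and SP2 (a zinc-finger transcription factor) for CTCF. Capitals mark matches, on either strand, to the letters of 10 motifs: AP-1 (TGANTCA), CRE (TGACGTCA), the motif of GATA factors (AGATAA), the motif of ETS factors (CCGGAAG), the GC box (GGGCGG), the CCAAT box (CCAAT), NRF1, the TATA box (TATAAA), YY1 (AAGATGGC) and CTCF. The longer NRF1 and CTCF motifs are given by name.
EZH2, chr7:148884292-148884541, minus strand: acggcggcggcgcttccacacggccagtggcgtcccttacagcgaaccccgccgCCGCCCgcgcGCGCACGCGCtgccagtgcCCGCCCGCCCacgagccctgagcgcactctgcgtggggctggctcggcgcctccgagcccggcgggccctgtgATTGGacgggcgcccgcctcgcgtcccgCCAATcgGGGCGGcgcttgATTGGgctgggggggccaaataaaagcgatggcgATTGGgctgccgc
RPL13A, chr19:49487358-49487607, plus strand: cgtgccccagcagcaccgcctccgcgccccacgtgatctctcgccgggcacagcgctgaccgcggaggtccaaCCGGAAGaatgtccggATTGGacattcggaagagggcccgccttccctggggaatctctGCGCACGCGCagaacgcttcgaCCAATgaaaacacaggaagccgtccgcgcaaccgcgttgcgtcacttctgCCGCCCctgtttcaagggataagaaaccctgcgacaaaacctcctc
TFRC, chr3:196082091-196082340, minus strand: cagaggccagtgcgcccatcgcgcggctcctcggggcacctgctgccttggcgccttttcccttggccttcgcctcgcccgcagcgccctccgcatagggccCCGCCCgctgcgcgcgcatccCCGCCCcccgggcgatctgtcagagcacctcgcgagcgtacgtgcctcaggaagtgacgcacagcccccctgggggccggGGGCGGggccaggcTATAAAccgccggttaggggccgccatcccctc
MAFF, chr22:38201744-38201993, plus strand: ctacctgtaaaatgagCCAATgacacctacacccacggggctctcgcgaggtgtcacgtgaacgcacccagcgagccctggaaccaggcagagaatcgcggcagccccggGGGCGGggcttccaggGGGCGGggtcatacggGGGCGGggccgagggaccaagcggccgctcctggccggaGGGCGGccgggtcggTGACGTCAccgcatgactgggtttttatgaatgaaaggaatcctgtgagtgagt
SP2, chr17:47895986-47896235, plus strand: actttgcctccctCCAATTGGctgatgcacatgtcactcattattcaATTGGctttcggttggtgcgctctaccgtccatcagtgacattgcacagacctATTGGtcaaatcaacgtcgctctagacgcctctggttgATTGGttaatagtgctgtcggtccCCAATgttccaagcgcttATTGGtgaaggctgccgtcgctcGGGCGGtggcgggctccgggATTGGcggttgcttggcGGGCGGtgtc
All 5 hold the GC box, with 4 matches at EZH2 and at MAFF, and 4 of the 5 hold CCAAT, the exception being TFRC, which alone holds the TATA letters, 33 bases before the start. The NRF1 letters stand 186 bases before the EZH2 start and 118 bases before that of RPL13A. RPL13A also holds the ETS letters, 177 bases before its start, and MAFF the CRE letters, 54 bases before its start. SP2 holds CCAAT 8 times, 2 of them on opposite strands in 1 overlapping stretch. None of the 5 holds the AP-1, GATA, YY1 or CTCF letters in this window.

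Constant-peak regions were wide relative to all other H3K27ac regions. Their median width was 1721 bp, against 482 bp for all other H3K27ac regions, and together they covered 30.8 Mb. Median width rose with the number of libraries that had a peak, from 241 bp with 0 libraries to 1220 bp with 5. The regions most like them were thus also wide. The median gap between neighbours was 38546 bp, and 9.46% of gaps were under 5000 bp. No other set was measured for comparison, so the gaps do not show whether the regions were clustered or spread out. By chromosome the share of regions that were constant-peak lay between 13.1% on chromosome 13 and 31.2% on chromosome 19. Regions with a peak in 0, 1, 2, 3, 4 or 5 libraries numbered 19965, 19715, 21655, 6081, 6258 and 4058. Those with peaks in both 72 h libraries and no other numbered 16169, and those with peaks in both 0 h libraries and no other 3075. At the edge of the rule, 489 constant-peak regions had a strongest peak of −log10 q under 4 in their weakest library, with a median level of 12.8 CPM (counts scaled to a common library size), and the 4058 regions that missed 1 library had a median of 11.3 CPM. Of the latter, 1789 lacked a peak in replicate 1 at 6 h, the H3K27ac library with the fewest counts.

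Gene starts were common in them. Of the 16563 constant-peak regions off chromosome 8, whose starts were not used here, 6617 (40.0%) held a start listed by RefSeq, 7380 (44.6%) lay within a gene span without a listed start and 2566 (15.5%) lay outside any span. Of all other H3K27ac regions 2.91% held a start, as did 2.39% of those with peaks at 72 h only and 2.64% of those with peaks at 0 h only. A wider region can hold more starts, and among regions with a width of at least 1000 and under 1500 bp the shares were 31.2% and 4.94%. Seen from the genes, 42.4% of protein-coding genes with a listed start had one in a constant-peak region, against 14.0% of long non-coding RNA genes. Starts on both strands, as at divergent promoters, lay in 1699 constant-peak regions.

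The promoters in constant-peak regions were rich in CpG, as housekeeping promoters usually are. Over the 300 bases around a start (250 before it and 50 after it), the median observed over expected CpG ratio was 0.851 for the 10123 listed starts in constant-peak regions and 0.58 for all 34961 listed starts. Median GC was 64.7% and 58.7% in the same order. The GC box was found in 70.3% of starts in constant-peak regions and 45.0% of all starts, ETS in 24.1% and 10.3%, NRF1 in 14.2% and 5.8%, and YY1 in 6.79% and 2.89%. The CRE letters stood in 3.56% and 1.85%, the CCAAT box in 38.2% and 34.6% and the CTCF letters in 2.73% and 2.41%. The letters that were rarer in constant-peak regions were TATA (4.86% against 11.5%), GATA (4.92% against 10.3%) and AP-1 (4.94% against 7.68%). Among the 411 starts in regions with peaks at 72 h only, AP-1 letters were in 26.3% and the median CpG ratio was 0.292. For the 91 starts in regions with peaks at 0 h only, AP-1 letters were in 3.3% and the ratio was 0.738. A high CpG ratio and few AP-1 letters were thus not particular to constant-peak regions. The other letters of those 91 differed, with ETS in 5.49%, GATA in 14.3% and TATA in 15.4%, but the GC box in 60.4%.

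H3K27ac at these regions took a smaller part of the counts with time. Constant-peak regions held 67.7% and 68.0% of the counts in the libraries at 0 h, 62.0% and 64.0% after 6 h and 53.4% and 54.0% after 72 h. The times did not overlap, and the mean went from 67.9% ± 0.156 (SD, n = 2) to 63.0% ± 1.4 and 53.7% ± 0.432. The share in constant-peak regions that held a start went from 31.1% ± 0.0999 to 23% ± 0.0252 (SD, n = 2) between 0 and 72 h. A share has a fixed total, so it also moves with the counts in all other regions. Of all H3K27ac peaks, 56.8% ± 0.848 lay in these regions at 0 h, 65.7% ± 3.1 at 6 h and 34.8% ± 0.314 at 72 h (SD, n = 2).

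The median level of a constant-peak region, in CPM scaled with TMM factors, was 32.1 ± 0.644 at 0 h, 25.4 ± 0.979 at 6 h and 22 ± 0.455 at 72 h (SD, n = 2). The length under peaks did not follow the level. It was 1212 ± 26.4 bp per region at 0 h, 983.6 ± 139 bp at 6 h and 1321 ± 1.38 bp at 72 h (SD, n = 2). The 6 h libraries, of 885 and 1082 bp, differed from each other by more than those of any other time.

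**Figure D1:**
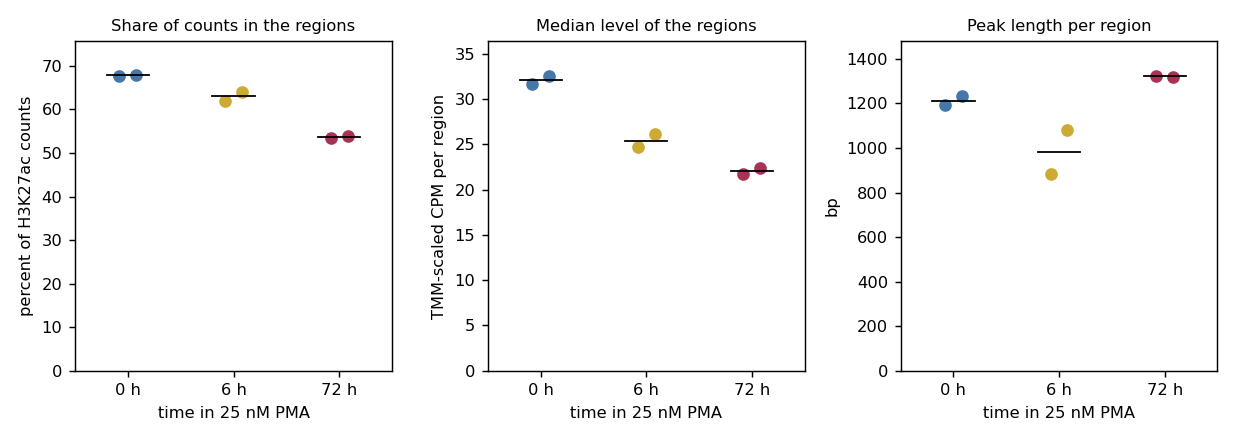
Each point is 1 H3K27ac library and each line the mean of 2, by time in PMA: the percent of H3K27ac counts in constant-peak regions (left), the median TMM-scaled CPM per region (middle) and the mean length under peaks per region in bp (right). The share and the median level are highest at 0 h and lowest at 72 h, while peak length is lowest at 6 h and highest at 72 h. The summed counts per library have the same order of times as peak length.

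Region by region, the order 0 h above 6 h above 72 h was held by 9166 constant-peak regions (53.4%), and the reverse order by 1908 (11.1%). The highest and lowest time means were within 1.5-fold of each other in 25.1% of regions, within 2-fold in 58.7% and within 4-fold in 93.2%, with a median ratio of 1.85. At 72 against 0 h, edgeR's quasi-likelihood test at a Benjamini-Hochberg adjusted p under 0.05 called 14666 of 17164 constant-peak regions, 2800 higher and 11866 lower, where 81.5% of all 94865 tested regions were called (43.4% higher and 38.1% lower). At 6 h it called 11972, 2528 higher and 9444 lower, against 58.6% of all regions (32.3% higher and 26.3% lower). These libraries chose the regions, so the counts are a description. Both comparisons use the same 0 h libraries.

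The split between higher and lower calls depended on the scale, though lower calls were the majority at 72 h under each scaling. With TMM factors the median log2 fold change at 72 h was −0.64 in constant-peak regions and 0.18 over all regions. The share of their calls that were higher was 19.1%, against 26.5% with total counts, 37.2% with loess offsets, 19.5% with DESeq2 and 47.8% with every-peak factors, that is TMM computed on the constant-peak regions themselves. Every-peak factors place the centre of constant-peak regions near 0 by construction. Under these alternatives, in the order given, the median over all regions was 0.42, −0.06, 0.24 and 0.79. The difference between constant-peak regions and all regions was −0.82 with TMM and between −0.84 and −0.83 under these alternatives except loess, where it was −0.14. At 6 h the share of calls that were higher was 21.1% with TMM, 48.4% with total counts, 45.4% with loess offsets, 16.6% with DESeq2 and 50.1% with every-peak factors. No spike-in is named in the labels, so values are relative to the other regions of a library.

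Constant-peak regions with a start varied less than those without. At 72 h their median log2 fold change was −0.72, with quartiles of −1.03 and −0.39, against −0.54 with quartiles of −1.12 and 0.18 for regions without a start. Among 6617 with a start 430 were called higher and 5411 lower, and among 9946 without, 2264 and 6039. Changes of at least 2-fold in either direction were seen in 28.5% and 40.3%. Fold changes among regions with a start were therefore narrower in range and more often lower on the TMM scale.

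**Figure D2:**
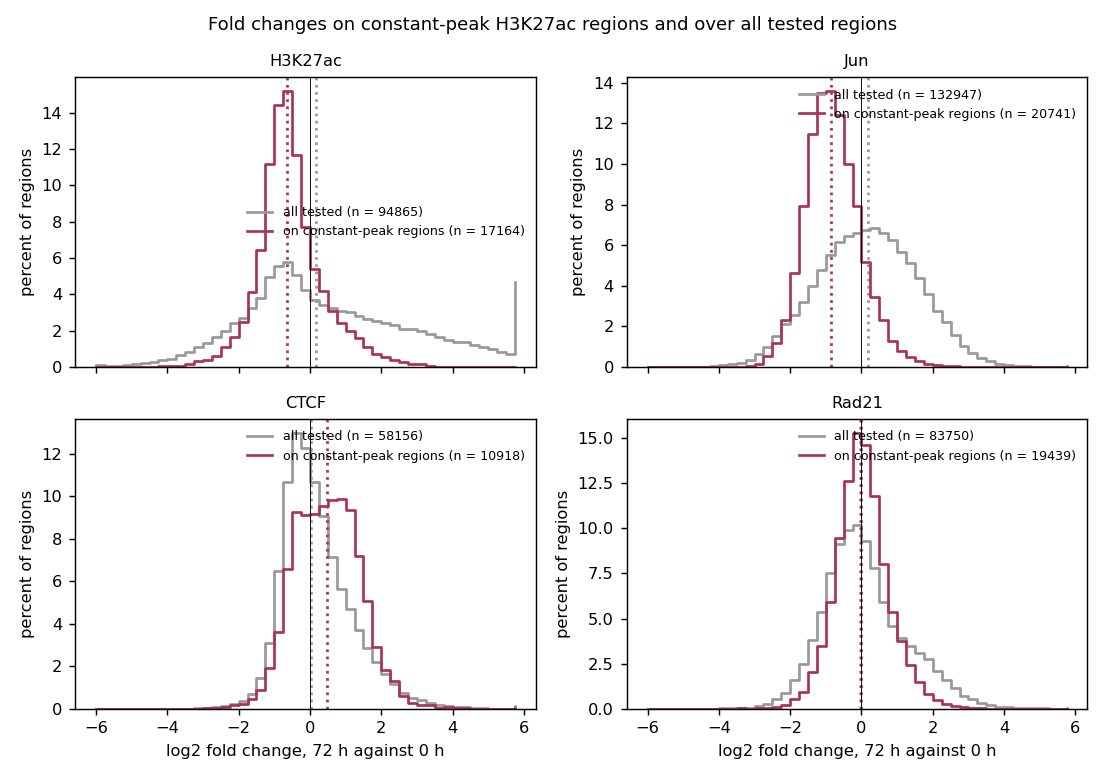
Distribution of the log2 fold change at 72 against 0 h, in percent of regions per 0.25 log2 units, for each antibody. Red lines are regions on constant-peak H3K27ac regions and grey lines all tested regions, dotted lines are the medians, and the outermost bins hold all values beyond the axis. The red curves of H3K27ac and Jun lie left of the grey ones, with medians of −0.64 and −0.85, that of CTCF lies to the right at 0.47, and the Rad21 medians of −0.01 and −0.05 nearly coincide.

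Among constant-peak regions at or above the median level, none of the 6 largest values in either direction was at a protein-coding start. The region with the largest value upward, chr6:134435607-134438697, holds the start of the long non-coding RNA gene LINC01010. It read 5.17 and 5.69 CPM at 0 h, 53.9 and 53.2 after 6 h and 116 and 130 after 72 h (log2 fold change 4.5, SE 0.13). The times did not overlap, and most of the change on the log2 scale was present at 6 h (3.30, SE 0.13). The next was chr6:37628434-37631333, in the span of MDGA1, which codes for a cell-surface protein of the nervous system, with 8.92 and 8.59, 79.7 and 77.5, and 151 and 172 CPM at the same times (4.20, SE 0.13). At chr9:6565920-6568364, within GLDC, which codes for the glycine decarboxylase of mitochondria, the level went from 3.98 and 4.95 to 66.7 and 77.2 CPM (4.0, SE 0.14). These 3 regions were also the largest at 6 h. Regions in the span of CLDN14-AS1, or nearest to LOC124901199 and LINC00895, followed, with 3.97, 3.74 and 3.73.

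Of the largest values downward, chr6:135073236-135075798, nearest to LOC124901405, read 207 and 210 CPM at 0 h, 34.0 and 41.6 after 6 h and 8.43 and 8.19 after 72 h (−4.65, SE 0.13). The times did not overlap here either. A region within RRP15, which codes for a ribosome assembly factor, chr1:218303142-218305863, went from 169 and 156 to 7.35 and 7.28 CPM (−4.47, SE 0.12). In the span of IMMP2L, which codes for a subunit of a peptidase of the inner mitochondrial membrane, chr7:111474232-111477490 read 297 and 313, 37.1 and 43.4, and 13.5 and 17.3 CPM (−4.31, SE 0.13). Regions in the span of LINC01122 or nearest to FARSBP1 and RNU6-400P had −4.30, −4.24 and −4.17. At 6 h the largest falls on the log2 scale were in the span of A2ML1 (−3.40, SE 0.13), which codes for a protease inhibitor, at IMMP2L (−2.92, SE 0.13) and in the span of LINC02334 (−2.82, SE 0.12). The A2ML1 region read 67.9 and 68.5 CPM at 0 h, 5.81 and 6.94 after 6 h and 15.1 and 17.4 after 72 h, and the LINC02334 region was likewise lowest at 6 h.

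The steadiest of the strong regions kept a level within 1.1-fold over all 6 libraries on the TMM scale. In the span of CBFB, the non-DNA-binding partner of RUNX factors, chr16:67028222-67030854 read 55.1, 53.7, 53.1, 56.3, 53.4 and 55.3 CPM in the libraries at 0, 6 and 72 h. The other regions were in the span of VPS37B (a subunit of an endosomal sorting complex), at the start of ZBTB48 (a protein that binds telomere repeats) and in the span of FRG1HP. Their log2 fold changes at 72 h lay between −0.08 and 0.03 with TMM, but between 0.47 and 0.67 with loess offsets and between 0.53 and 0.63 with every-peak factors. With DESeq2 none of the 4 was called at 72 h, as with TMM, and all 4 were called higher with loess offsets and every-peak factors.

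The regions with the most counts differed in kind. One in the span of SGMS1, a sphingomyelin synthase gene, chr10:50324721-50329841, was 5121 bp wide and read 830 and 798, 291 and 360, and 242 and 265 CPM (−1.68 at 72 h, SE 0.12). The other 3 were 522 to 593 bp wide. That nearest to RNU6-488P read 475 and 440, 796 and 602, and 262 and 347 CPM, a log2 fold change of −0.59 at 72 h that became 0.30 with loess offsets. Those nearest to LOC105374141 and CEACAMP5 had replicates over 3-fold apart at each time: LOC105374141 read 597 and 43.5 at 0 h, 1170 and 240 after 6 h and 12.0 and 84.0 CPM after 72 h. Their log2 fold changes of −2.74 and −2.65 at 72 h became 0.14 and 0.40 without replicate 1 at 0 h.

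**Figure D3:**
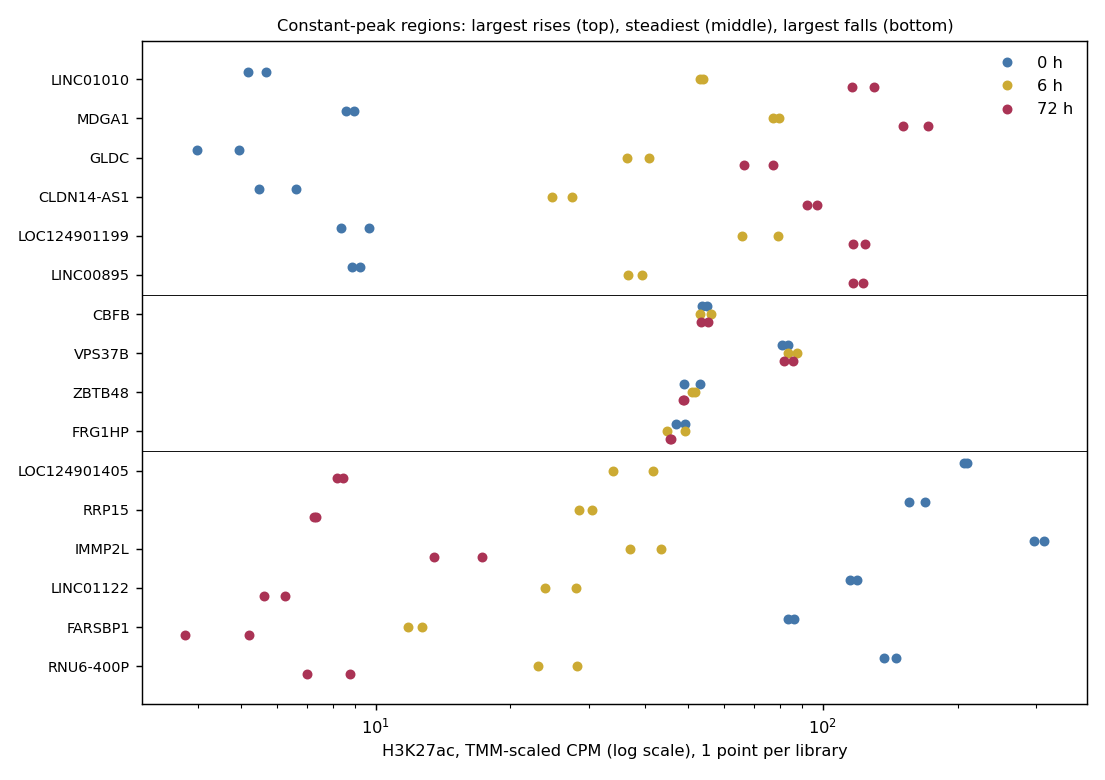
H3K27ac in TMM-scaled CPM on a log axis, 1 point per library and 1 colour per time, for the constant-peak regions with the 6 largest values upward, the 4 steadiest and the 6 largest downward at 72 h. Names are those of the gene whose start or span the region overlaps, or of the nearest gene. In the upper group the 0 h points lie lowest and the 72 h points highest, in the lower group the order is reversed, and in the middle group all points of a region nearly coincide.

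Housekeeping genes were nearly all in constant-peak regions. Of 63 ribosomal protein genes with a listed start, 59 had it in one, and of these regions 0 were called higher and 58 lower at 72 h, with a median log2 fold change of −0.90. Of all constant-peak regions with a start, 6.5% were called higher and 81.8% lower at 72 h, with a median of −0.72, and 6.91% and 60.9% at 6 h, and the lists are to be read against these shares. RPL13A, in chr19:49487060-49490092, read 89.7 and 85.8 CPM at 0 h, 52.1 and 45.9 after 6 h and 37.0 and 34.9 after 72 h (−1.29, SE 0.10), with no overlap between times. The values ran from −1.44 at RPL29 to −0.14 at RPL35A, the region not called, which read 85.8 and 87.1 CPM at 0 h and 78.1 and 78.4 at 72 h. The list's median stayed below 0 under each scaling, at −0.66 with total counts, −0.36 with loess offsets, −0.85 with DESeq2 and −0.29 with every-peak factors, where 3 were called higher and 36 lower.

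All 26 proteasome subunit genes with a listed start had it in a constant-peak region. At 72 h 1 was called higher and 24 lower, with a median of −0.71, close to the −0.72 of all constant-peak regions with a start. At 6 h the median was −0.44, which became 0.06 with loess offsets. PSMA2, a subunit of the core particle, had the lowest value, at −1.60 (SE 0.11), with 68.9 and 73.2 CPM at 0 h and 23.7 and 23.2 at 72 h. PSMD2, a subunit of the regulatory cap, was the one called higher, with 36.4 and 39.8 CPM at 0 h, 46.3 and 48.3 after 6 h and 56.2 and 57.3 after 72 h (0.57, SE 0.10). With every-peak factors 5 were called higher and 9 lower. PSMA2 stayed below 0 and PSMD2 above 0 under total counts, loess and every-peak scaling.

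Of 29 DNA replication genes with a listed start, 25 had it in a constant-peak region, and 24 of these were called lower and 1 higher at 72 h. Their median of −1.09 was the lowest of the lists with over 10 regions, and with every-peak factors it was −0.49, with 22 lower and 1 higher. POLE, which codes for the catalytic subunit of the leading-strand polymerase, shares its region with the start of PXMP2 and read 38.7 and 38.9 CPM at 0 h, 24.3 and 25.1 after 6 h and 10.3 and 10.3 after 72 h (−1.92, SE 0.11). GINS1, a subunit of the replicative helicase, had −1.73 (SE 0.13). GINS3, of the same complex, was the exception at 0.36 (SE 0.11), with 36.0 and 38.5 CPM at 0 h, 53.6 and 62.1 after 6 h and 47.1 and 48.6 after 72 h. The highest level was at CDC45, another helicase subunit, with a mean of 215 CPM over the 6 libraries and −0.94 (SE 0.11) at 72 h.

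The genes that write, read and erase marks at H3K27 were among them too. Of 15 with a listed start 11 had it in a constant-peak region, EZH2 in 2 separate regions, and all 12 regions were called lower at 72 h, with a median of −0.89, where 81.8% of all constant-peak regions with a start were called lower. For EZH2 the region around its listed start, chr7:148884046-148885585, read 74.3 and 74.9 CPM at 0 h, 39.5 and 44.1 after 6 h and 33.3 and 34.1 after 72 h (−1.15, SE 0.10), and that at a second start had −1.43 (SE 0.12). The other core subunits of Polycomb repressive complex 2 had −1.38 (EED, SE 0.11) and −1.08 (SUZ12, SE 0.10), and these 4 regions were below 0 under total counts, loess and every-peak scaling as well. EP300, which codes for p300, had −0.53 (SE 0.11), but 0.07 with every-peak factors. HDAC1, a deacetylase, had −0.54 (SE 0.10), but 0.09 with loess offsets. BRD2, which codes for a bromodomain protein that binds acetylated histones, was the highest at a mean of 213 CPM and had −0.57 (SE 0.11), but 0.22 with loess offsets.

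Of 12 erythroid genes with a listed start, 2 had it in a constant-peak region, where 42.4% of all protein-coding genes with a listed start did. By gene span, 10 of all 25 genes of the list overlapped one, and no share by span over all genes was computed. TFRC read 120 and 124 CPM at 0 h, 60.7 and 63.0 after 6 h and 55.4 and 61.0 after 72 h (−1.07, SE 0.10), and TAL1, a transcription factor of blood stem cells and red cells, had −0.71 (SE 0.11). Of 14 megakaryocyte genes with a listed start, 4 had it in a constant-peak region, and by span 9 of all 20 overlapped one. All 4 regions with a start were called lower on the TMM scale at both times. Of all constant-peak regions with a start, 81.8% were called lower at 72 h and 60.9% at 6 h. GP1BB, which codes for part of the platelet receptor for von Willebrand factor, read 155 and 168 CPM at 0 h, 64.2 and 68.7 after 6 h and 70.2 and 73.3 after 72 h (−1.17, SE 0.10). GP6, the platelet collagen receptor gene, had −1.07 (SE 0.10), and the transcription factor genes ETV6 and SRF each had −0.74. At 72 h all 6 of these lineage regions were also below 0 under total counts, loess and every-peak scaling. At 6 h SRF had 0.06 with loess offsets and 0.01 with every-peak factors. Of 8 marker genes of other lineages with a listed start, CD3D alone had it in a constant-peak region, at 14.4 and 15.0 CPM at 0 h and 20.6 and 20.5 at 72 h. By span, 3 of all 16 of these markers overlapped one.

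Of 15 early response genes with a listed start 5 had it in a constant-peak region, where 42.4% of all protein-coding genes with a listed start did. By gene span, 17 of all 24 genes of the list overlapped one, and no share by span over all genes was computed. Of the 5 regions with a start, 4 were called higher and 0 lower at 72 h, with a median of 1.01. EGR2, a zinc-finger transcription factor induced by growth signals, read 8.57 and 9.27 CPM at 0 h, 51.5 and 49.2 after 6 h and 42.5 and 45.3 after 72 h (2.3, SE 0.12). MAFF read 8.40 and 8.64, 19.6 and 18.7, and 19.3 and 20 CPM (1.20, SE 0.13), and FOSL2, an AP-1 subunit, had 1.01 (SE 0.14). For EGR2, MAFF and FOSL2 both 6 h libraries lay well above both 0 h libraries. JUN, the gene of the AP-1 subunit profiled here, read 39.6 and 38.7 CPM at 0 h and 49.7 and 46.2 at 72 h (0.29, SE 0.11), and DUSP1, a phosphatase of MAP kinases, had 0.05 (SE 0.11). All 5 were called higher with total counts, loess offsets and every-peak factors.

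Promoter letters differed between the regions sorted by H3K27ac. AP-1 letters stood near 14.3% of the 593 starts in constant-peak regions called higher at 72 h, 7.45% of the 1141 in regions not called and 3.93% of the 8389 in regions called lower. Among the 160 starts in regions higher by at least 2-fold the share was 25.0% and the median CpG ratio was 0.522. NRF1 letters ran the other way, at 6.91%, 10.4% and 15.2% for regions called higher, not called and called lower. Starts in 1 region share a call, and the groups were made from the H3K27ac libraries, so these shares are a description.

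Jun, CTCF and Rad21 libraries took no part in the choice of regions. At 0 h 61.1% of constant-peak regions overlapped a Jun peak of both libraries, against 14.1% of all other H3K27ac regions. At 6 h the shares were 38.5% and 11.6%, and at 72 h 75.6% and 49.0%. Among regions with a width of at least 1000 and under 1500 bp they were 52.6% and 25.2% at 0 h but 69.1% and 74.5% at 72 h, so at matched width the order of these sets turned round. Regions with H3K27ac peaks at 72 h only had Jun peaks in 8.47% at 0 h and 81.4% at 72 h. The 72 h Jun libraries held 17245043 and 18883962 counts and those at 0 h 7952946 and 8600736, and counts on the mitochondrial chromosome were 9.07% and 8.58% of the total, against 24.1% and 27.7% at 0 h. The part of depth in these shares was not tested.

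CTCF peaks of both libraries overlapped 15.2% of constant-peak regions at 0 h, 8.81% at 6 h and 18.1% at 72 h, against 5.02%, 3.62% and 5.74% of others. Rad21 peaks overlapped 45.9% at 0 h and 38.4% at 72 h, against 6.8% and 6.91%. At that width CTCF peaks overlapped 13.6% and 4.21% at 0 h, and Rad21 peaks 35.1% and 9.93%. Regions with a start held both more often: 20% against 12.2% for CTCF and 54.3% against 40.7% for Rad21 at 0 h, while for Jun the shares were 60.0% and 62.1%. The replicates differed, most of all for CTCF at 72 h, where 21.2% and 39.3% of constant-peak regions had a peak in the single libraries.

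**Figure D4:**
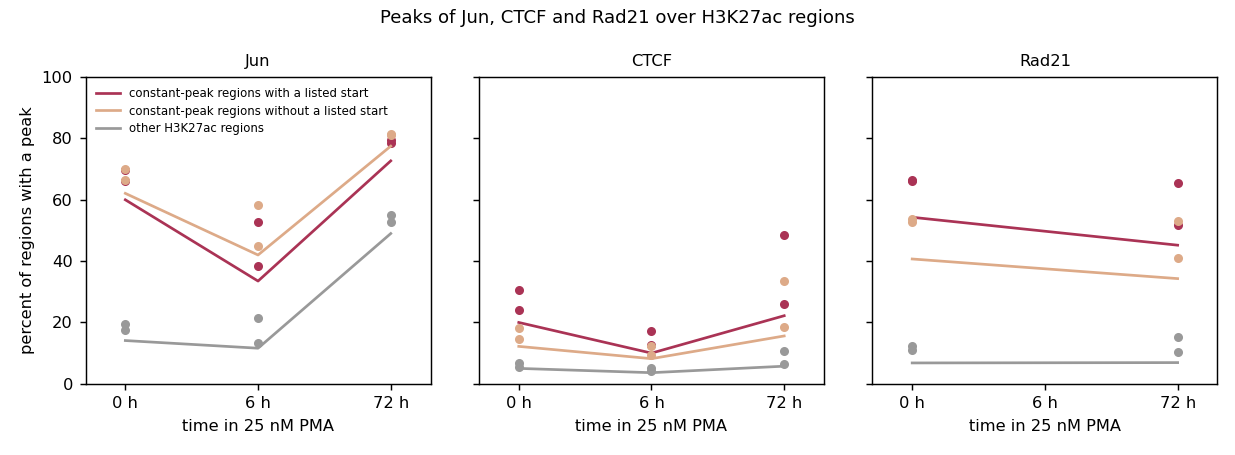
Percent of H3K27ac regions that overlap a peak of Jun, CTCF or Rad21, by time in PMA: points are single libraries and lines join the shares with a peak in both libraries. Colours separate constant-peak regions with and without a listed start from all other H3K27ac regions, and Rad21 has no point at 6 h. Both kinds of constant-peak region lie above the others at every time, and Jun shares are lowest at 6 h and highest at 72 h.

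Constant-peak regions with Jun peaks at 0 h mostly had Jun peaks at 72 h too, though not necessarily at the same position. The 72 h Jun libraries held more counts than those at 0 h, and the part of depth was not tested. Of constant-peak regions with Jun peaks in both 0 h libraries, 95% had them in both 72 h libraries. The same share was 76.9% for CTCF and 61.3% for Rad21, against 86.8%, 84.1% and 39.3% in all other regions. For combinations, a protein counted as present only with a peak in both libraries of that time. Regions with its peak in a single library therefore counted as without it. By this rule Rad21 without CTCF was more common than both together, at 33.9% and 12.0% of constant-peak regions at 0 h. The part of single-library peaks in these shares was not tested. Jun and Rad21 stood together in 36.9% at 0 h and 35.9% at 72 h. Jun alone, by the same rule, was in 23.1% and 36.3%, and all 3 proteins in 9.32% and 11.9%. None of the 3 had a peak in both libraries in 27.9% at 0 h and 19.8% at 72 h.

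Jun signal on constant-peak regions was lower at 72 h relative to all Jun regions. Of 20741 tested Jun regions that overlapped a constant-peak region, edgeR called 13310 (64.2%), 774 higher and 12536 lower, where the background over all 132947 tested Jun regions was 53.7% (28% higher and 25.7% lower). The median log2 fold change was −0.85, against 0.17 over all. At 6 h 6906 (33.3%) were called, 1111 higher and 5795 lower, against 25.3% (13.1% higher and 12.2% lower), with medians of −0.40 and 0.06. At starts the 72 h median was −0.99 and away from starts −0.75.

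The Jun split also moved with the scaling. At 72 h 5.82% of the calls on constant-peak regions were higher with TMM, 26.5% with total counts, 13% with loess offsets, 3.28% with DESeq2 and 43.6% with every-peak factors (TMM on the Jun regions with peaks in all 6 Jun libraries), where 3774 were higher and 4884 lower. The median there was −0.08, while that of all Jun regions was 0.94. The distance between the medians was −1.02 with TMM, total counts, every-peak factors and DESeq2, and −0.70 with loess offsets. The lower position of constant-peak regions among Jun regions held in each scaling, whereas the size and sign of a single region's change depended on it.

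Single Jun regions moved both ways. The largest fall described here lay in the span of TFR2, an erythroid transferrin receptor gene, at chr7:100640980-100641761, with 13.3 and 15.9 CPM at 0 h, 1.13 and 2.19 after 6 h and 0.761 and 1.06 after 72 h (log2 fold change −3.98, SE 0.30, adjusted p 7.53e-09 by edgeR). H3K27ac in the constant-peak region that holds it had −3.93. In the span of LOC105378268, chr10:42646917-42647561 went from 14.0 and 11.6 to 0.903 and 0.891 CPM (−3.82, SE 0.30, adjusted p 1.09e-08 by edgeR), and nearest to the keratin gene KRT2, chr12:52660852-52661359 had −3.79 (SE 0.38, adjusted p 1.13e-07 by edgeR). The times did not overlap at any of these. The largest rise was at a start shared by CENPQ, a kinetochore gene, and MMUT, the gene of mitochondrial methylmalonyl-CoA mutase, chr6:49464588-49465237, with 0.146 and 0.86 CPM at 0 h (1 and 6 counts), 7.94 and 5.29 at 6 h and 9.51 and 10.0 at 72 h (4.24, SE 0.44, adjusted p 1.42e-07 by edgeR). H3K27ac at this region had 0.16 and was not called. Jun also rose in the span of TNPO1-DT (2.72, SE 0.27, adjusted p 9.1e-08 by edgeR), at the start of NUDC, which codes for a dynein-associated chaperone (2.71, SE 0.35, adjusted p 2.06e-06 by edgeR), and nearest to RN7SL636P (2.70, SE 0.26, adjusted p 6.31e-08 by edgeR). The RN7SL636P region was highest at 6 h, with 27.2 and 26.6 CPM against 16.3 and 15.8 at 72 h.

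CTCF was called on constant-peak regions about as often at 72 h as over all of its regions. Of 10918 tested CTCF regions on them 684 (6.26%) were called at 72 h, 411 higher and 273 lower, where 6.79% of all were called (4.07% higher and 2.72% lower). At 6 h 139 were called, 29 higher and 110 lower, against a background of 2.65% (2.33% higher and 0.325% lower). The counts rest on single libraries: at 72 h they ran from 6 without replicate 2 at 0 h to 2019 without replicate 2 at 6 h. They were 57 without replicate 1 at 0 h, 80 and 76 without replicate 1 and 2 at 72 h, and 1960 without replicate 1 at 6 h. The median of 0.47 (0.03 over all CTCF regions) became −0.01 among regions with a mean count of at least 50. The share of calls that were higher was 60.1% with TMM, 92.3% with total counts, 56.6% with loess offsets, 89.7% with every-peak factors and 29.9% with DESeq2.

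The largest CTCF fall was at the SP2 promoter whose sequence is printed. There chr17:47895745-47896428, which spans that sequence, read 77.5 and 133 CPM at 0 h, 19.4 and 15.1 after 6 h and 9.45 and 14.2 after 72 h (−3.12, SE 0.32, adjusted p 0.000682 by edgeR). Both 0 h libraries lay above all others. H3K27ac of the constant-peak region around it had −0.51. At the start of SPATC1L, chr21:46184397-46184865 read 95.3 and 158, 35.9 and 24.8, and 19.6 and 14.3 CPM (−2.91, SE 0.32, adjusted p 0.000782 by edgeR). The largest rises were nearest to LOC101928354 (2.73, SE 0.57) and in the span of ESYT2, which codes for a protein that tethers membranes (2.35, SE 0.45). Their edgeR adjusted p of 0.0149 and 0.00997 became 0.0931 to 0.129 and 0.0597 to 0.114 when single libraries were left out, replicate 1 or 2 at 0 h for both and also replicate 2 at 72 h for LOC101928354.

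Rad21 was called less often on constant-peak regions than over all of its regions. Of 19439 tested Rad21 regions on them 2836 (14.6%) were called at 72 h, 1556 higher and 1280 lower, where the background over all 83750 was 23.3% (15.4% higher and 7.91% lower). The median was −0.01, against −0.05 over all. At starts 7.21% were called and away from starts 20.1%. The share of calls that were higher was 54.9% with TMM, 31.2% with total counts, 48.6% with loess offsets, 52.4% with every-peak factors and 66.0% with DESeq2, so the majority direction turned with the scaling. Without replicate 1 or 2 at 72 h 897 and 1170 were called.

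The Rad21 fall with the largest size lay at the same place in the span of LOC105378268 where Jun fell, chr10:42646917-42647483, with 17.5 and 12.7 CPM at 0 h and 2.23 and 1.70 at 72 h (−2.92, SE 0.36, adjusted p 9.03e-06 by edgeR). A Rad21 region within LOC105371661, chr1:192123449-192123789, had −2.76 (SE 0.52, adjusted p 0.000632 by edgeR), which became 0.0601 without replicate 1 at 0 h. H3K27ac of the regions around them had −3.18 and −3.11. In the span of LOC105376626, chr11:35031756-35032109 rose from 0.629 and 0.844 to 9.08 and 7.54 CPM (3.49, SE 0.50, adjusted p 3.86e-05 by edgeR), and H3K27ac there had 1.39. The rise nearest to CEACAMP5 (3.36, SE 0.56) rested on 1 library, with 27.1 and 266 CPM at 72 h, and its edgeR adjusted p of 0.000182 became 0.0847 without it.

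Where Jun, CTCF or Rad21 changed, H3K27ac of the constant-peak regions differed in their median in the same order. In 521 constant-peak regions whose Jun regions were called higher only, the median H3K27ac log2 fold change at 72 h was 1.34 and 83.9% were called higher. In 11110 with Jun called lower only it was −0.76, in 3968 with tested Jun regions and no call −0.20, and in 1375 without a tested Jun region −0.83. The median of the last set lay near that of the set with Jun called lower. With Rad21 the medians were 0.72 for 1450 regions called higher, −1.43 for 1184 called lower and −0.65 for 12241 with no call. With CTCF they were 0.11 for 406, −0.82 for 272 and −0.63 for 9042.

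Across constant-peak regions with 1 region of the other antibody, Pearson's r between the log2 fold changes at 72 h was 0.569 for Jun (n = 11232 regions), 0.573 for Rad21 (n = 10704) and 0.29 for CTCF (n = 8400), with Spearman's rho of 0.525, 0.498 and 0.258. At 6 h r was 0.497 for Jun and 0.217 for CTCF. Regions are not independent replicates. They share libraries, copy number and base composition, and the values are a description.

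Within promoters the marks took different places. In the 4138 constant-peak regions that held 1 listed start, the strongest H3K27ac summit lay at a median distance of 236 to 321 bp from the start, by library, and downstream of it in 55.2% to 59.4%. The strongest Jun summit lay upstream in most, at a median of 112 to 118 bp before the start, with 28.0% to 38.2% downstream. CTCF summits had medians of 109 to 133 bp before the start and Rad21 summits 110 to 117 bp. Not all of the 4138 regions had a summit of these proteins. By library 1480 to 3177 had one of Jun, 489 to 1810 of CTCF and 1998 to 2609 of Rad21. Their medians and shares are over those regions alone. H3K27ac summits within 100 bp of the start were few, at 10.1% to 19.6%, with the highest share in replicate 1 at 6 h.

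**Figure D5:**
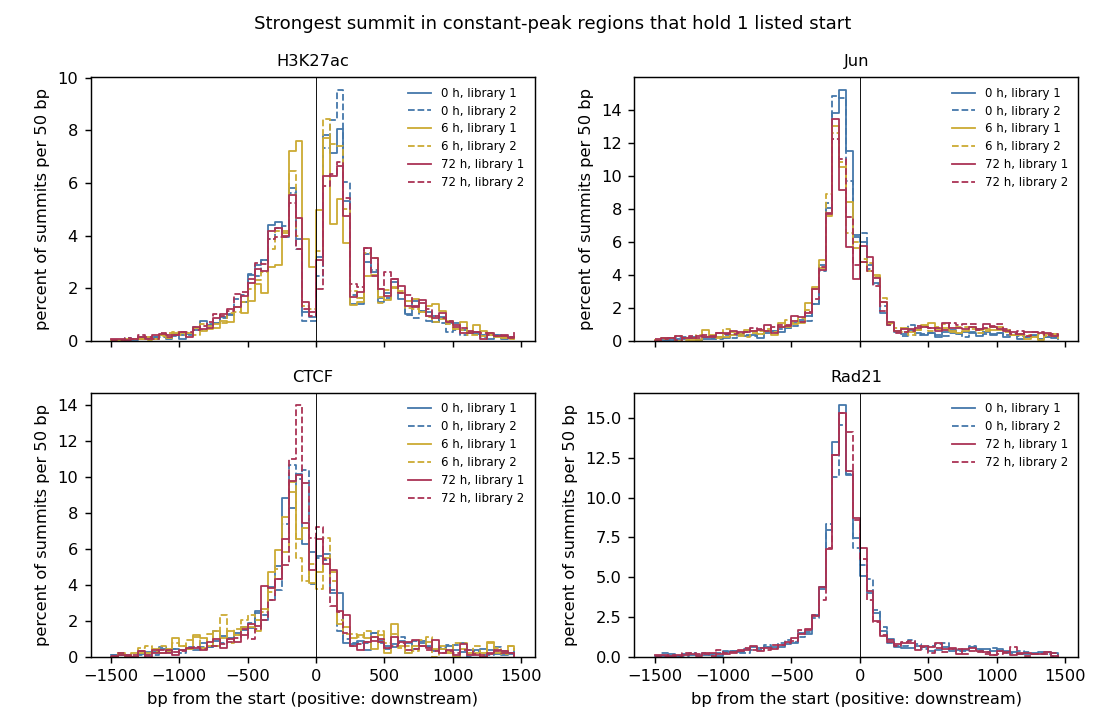
Position of the strongest summit relative to the start, in percent of summits per 50 bp, in constant-peak regions with 1 listed start, for each antibody and library, with positive positions downstream. H3K27ac summits form a peak on each side of the start with a dip at it, and Jun, CTCF and Rad21 summits form 1 main peak that lies upstream, with medians 109 to 133 bp before the start.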

How the data were processed

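CUT&RUN libraries of K562 cells were read from the authors' deposited tables of read counts per region, 1 table per antibody, and from peak lists of single libraries. The submitters' processing notes name Trim Galore 0.4.3, BWA 0.7.17, SAMtools 1.9, deepTools 3.0.1, MACS2 and bedtools 2.26, without their roles, and both hg19 and hg38. Chromosome names and positions in the files fit GRCh38, and coordinates are given on it. The deposited peak lists give a fold enrichment (a ratio) and −log10 of the p-value and q-value per peak. Peaks were used by position, and −log10 q for the edge of the rule. The authors' deposited tables also hold log2 fold changes and p-values, used in the other observations alone.

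Counts were tested with edgeR 4.0.16 in R 4.3.3 (quasi-likelihood, filterByExpr, TMM factors, all times of an antibody in 1 fit, no block), with Benjamini-Hochberg adjustment over all regions and a threshold of 0.05. SE is the absolute log2 fold change over the square root of F. Alternatives were total counts, loess offsets, DESeq2 1.42.0, no filter, a mean count of at least 50, a replicate block, leaving out each library, stricter membership and, chosen after seeing the data, every-peak factors (TMM on regions that all libraries of an antibody had a peak in). Named regions were the 4 with the highest mean CPM, the 6 largest and 6 smallest called log2 fold changes at 72 h and 3 each at 6 h (level at or above the median, groups not overlapping), the 4 steadiest among the strongest regions, the like 4 each way for Jun and 2 for CTCF and Rad21, and genes of the lists. Genes of the ribosomal, proteasome and replication lists and some others were named after their values were seen. 1 of the named regions, on chromosome 8, is not described. Members and gene lists were chosen with earlier results of these data known. Starts and promoter sequences came from RefSeq (GRCh38.p14). On simulated counts for 72 h, 93 of 100 regions changed 4-fold were recovered for H3K27ac, 84 for CTCF, 89 for Jun and 73 for Rad21. Of those changed 2-fold 58, 20, 32 and 13 were recovered. False calls were 6.21%, 4.59%, 3.2% and 4.44% of the calls in the same order. The simulation changed 200 regions, as many up as down, and kept the mean of all others. In the data 81.5% of H3K27ac regions were called at 72 h, so the simulation cannot test the scaling.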

Additional observations from a re-analysis of the deposited data

How the results depend on the processing

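Of the values for sets of constant-peak regions under the alternatives, 163 stayed the same, 82 moved and 11 changed sign. A median or share moved if it changed by more than the SD between replicates, and a count if by more than a fixed ratio. Of the values for named regions, 732 kept direction and side of the threshold, 14 reversed, 21 passed it and 18 lost it. The cause of the changes was not tested. With total counts, loess offsets, DESeq2, a mean count of at least 50 and every-peak factors (chosen after seeing the data), the H3K27ac median was −0.02, −0.05, −0.42, −0.25 and 0.0 at 6 h and −0.41, −0.20, −0.60, −0.49 and −0.04 at 72 h. At 6 h the Jun median was −0.20 with total counts and −0.23 with every-peak factors, and at 72 h −0.29, −0.69 (loess), −0.94 (DESeq2) and −0.08, with 8658 called under every-peak factors. CTCF calls at 6 h were 248 (total counts), 83 (DESeq2), 44 (mean count of at least 50) and 86 (every-peak), with medians of −0.18, −0.04 (loess) and −0.08 (mean count of at least 50). At 72 h they were 1783 (total counts), 325 (loess), 154 (DESeq2) and 69 (mean count of at least 50), with medians of 0.70, 0.20, −0.01 (mean count of at least 50) and 0.82 (every-peak). Rad21 calls were 921 (DESeq2) and 1572 (mean count of at least 50), with medians of −0.20 (total counts), 0.06 (DESeq2) and 0.05 (no filter). Reversed regions were FRG1HP (0.30, 0.40 and 0.32 at 6 h with total counts, loess and every-peak factors, 0.47 and 0.53 at 72 h with the latter), CBFB (0.23, 0.57 and 0.60), ZBTB48 (0.50 and 0.54), RNU6-488P (0.30 and 0.01) and, without replicate 1 at 0 h, LOC105374141 (0.14, and −4.74 without replicate 2 at 72 h) and CEACAMP5 (0.40, and −4.96). A minimum of 10 for −log10 q left 8687 regions with 43.2%, 40.7% and 33.5% of counts, called counts of 6124 and 7504 (H3K27ac), 3679 and 7826 (Jun, median −0.93 at 72 h), 430 (CTCF at 72 h) and 1232 (Rad21, median 0.01), and peaks on 3344 (Jun, 6 h), 1735, 918 and 1397 (CTCF) and 3273 and 2050 (Rad21). Leaving out each library gave H3K27ac 9957 to 11806 called (median −0.42 to −0.32) at 6 h and 13562 to 14972 (−0.67 to −0.62) at 72 h, Jun 4459 to 6590 (−0.53 to −0.36) and 9653 to 14784 (−0.94 to −0.81), CTCF 14 to 326 (−0.25 to 0.16) and 6 to 2019 (0.40 to 0.61), and Rad21 897 to 3007 (−0.04 to 0.29). It gave 17458 to 18953 constant-peak regions with 68.2% to 72.2%, 63.5% to 66.2% and 53.8% to 56.8% of counts, and peaks on 11358 to 11982, 7255 to 9591 and 13757 to 13816 (Jun), 3113 to 3945, 1814 to 2423 and 3643 to 6745 (CTCF) and 9940 to 10056 and 7765 to 9954 (Rad21). With the replicate number as a block, CTCF calls were 213 at 6 h and 1284 at 72 h. Deviations of replicate 1 from its group's mean log CPM were correlated between times, over regions with a mean count of at least 50. The correlation was 0.263 to 0.276 for CTCF and 0.151 for Rad21, −0.0115 to 0.0434 for H3K27ac and 0.0166 to 0.0665 for Jun. The labels do not say that the replicate number pairs libraries.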

Other observations

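In 9 constant-peak regions the H3K27ac replicates were more than 3-fold apart at some time, where the median over all of them was 1.16-fold. Besides LOC105374141 and CEACAMP5, these included regions at WWOX (64.8 and 5.27 CPM at 0 h, 132 and 28.0 at 6 h, 2.39 and 10.3 at 72 h) and CAMKMT (15.7 and 1.53, 36.6 and 6.35, 1.23 and 2.88). In all 4 replicate 1 was the higher library at 0 and 6 h and the lower at 72 h. CEACAMP5 read 0.726 to 0.928 of the LOC105374141 level in each library. At LOC105374141 CTCF read 1080 and 241 CPM at 0 h and Rad21 41.1 and 378 at 72 h. At CEACAMP5 the values were 970 and 182, and 27.1 and 266. Jun replicates at 0 h were closer, at 126 and 159, and 108 and 117. Another of the 9, chr5:49601384-49602896, nearest to EMB, read 17.4 and 16.7 CPM of H3K27ac at 0 h. CTCF there read 1030 and 769, and Rad21 1150 and 1330. The cause was not tested.

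The authors' deposited table labels 16114 constant-peak regions (93.9%) static, against 64.2% of all regions, and the other 1050 have an absolute log2 fold change of at least 2 in that table. Of constant-peak regions that it labels up, 69.5% have a negative 72 h log2 fold change in the same table, as have 72.4% of those it labels down. The labels' directions were therefore not used.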
